A study of Mus musculus with 12 samples.

Results

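The genes described here are 37 genes of the Atf4 stress response and of amino acid supply, chosen by their symbols from the 23438 genes of a mouse expression table. They comprise 5 transcription factors, 7 feedback and stress effectors, 8 enzymes of amino acid synthesis, 8 amino acid transporters, 6 tRNA synthetases and 3 genes of the endoplasmic reticulum. All 37 were present in the table; the rule that picks them uses symbols alone, but the set was proposed with earlier results of these data known. The libraries are 12 cultures of bone marrow derived macrophages (BMDMs), which are macrophages grown from bone marrow precursors in the dish, taken at day 7 of differentiation from atherosclerotic C57 mice. Of these, 7 are labelled WT and 5 are labelled KO for Baf60a, a subunit of the SWI/SNF chromatin remodelling complex that is encoded by Smarcd1. The genotype is the only difference that the labels give between the groups; both came from atherosclerotic mice and carry the same label of BMDM differentiation. The labels name no allele, Cre driver, sex, age or means of inducing atherosclerosis. They also do not tie a culture to a mouse, and the p-values below cover only the variation among the 12 libraries, part of which may be technical.

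Atf4 is a basic leucine zipper factor of the integrated stress response. Kinases that sense amino acid shortage, misfolded protein in the endoplasmic reticulum, missing haem or double-stranded RNA phosphorylate the translation factor eIF2, which lowers translation in general and favours translation of the Atf4 mRNA. Atf4 protein then pairs with C/EBP factors on composite elements and raises genes for amino acid uptake, amino acid synthesis and tRNA charging, together with feedback genes that restore translation. Much of the control of Atf4 lies in its translation, and only transcript levels were measured here.

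The composite element is known by its core letters TGATGNAA, and the promoters of the genes were searched for them on both strands, in the 250 bases before each annotated start. RefSeq promoter windows of GRCm38.p6, the assembly also called mm10, were matched by symbol for 32 of the 37 genes. The letters occurred in 9 of these 32 genes (28.1%), and in 1056 of all 27025 genes with a window (3.91%). The 9 genes included Herpud1, Gars, Asns, Nupr1, Slc7a11, Chac1, Pycr1 and Vldlr. The stretches below show the match in 5 of them, 5′ to 3′ on the strand of the gene. They are given because the element is the sequence by which Atf4 is known to reach such genes. Capitals mark the 8 matched letters; TTGCATCA is the element read on the other strand. In the GENCODE M21 annotation the Asns and Nupr1 matches lie within the span of the gene, downstream of its outermost start. The bases around them touch an annotated exon, whose gene and transcript were not examined. A match is a description of letters and shows no binding.
Herpud1 (chr8:94386281-94386360, + strand, match 104 bases before the start): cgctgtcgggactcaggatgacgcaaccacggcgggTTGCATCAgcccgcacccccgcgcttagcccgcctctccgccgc
Gars (chr6:55037935-55038000, + strand, match 22 bases before the start): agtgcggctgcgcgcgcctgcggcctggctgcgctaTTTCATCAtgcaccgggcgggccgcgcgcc
Asns (chr6:7693214-7693243, − strand, match 15 bases before the start): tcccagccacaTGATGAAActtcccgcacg
Nupr1 (chr7:126625562-126625591, − strand, match 102 bases before the start): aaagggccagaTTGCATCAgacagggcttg
Slc7a11 (chr3:50443617-50443696, − strand, matches 39 and 58 bases before the start): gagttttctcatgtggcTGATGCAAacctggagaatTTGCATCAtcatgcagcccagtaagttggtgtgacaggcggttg

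The 5 windows differ in where the element lies and in which strand carries it, and the Slc7a11 window holds a match on each strand. A further motif, the endoplasmic reticulum stress element, was searched as CCAAT, 9 bases of any kind and CCACG. It occurred in 1 of the 32 genes (3.12%), which was Hspa5, and in 35 of all genes with a window (0.13%). These shares too describe a chosen set.

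The values are TPM, a measure that corrects each gene's estimated reads for its length and brings every library to the same total. It carries no depth, so counting error could not be given for any value. Per the labels' protocols, reads were paired and 51 bases long. Smarcd1, on chromosome 15 at 99702129 to 99713991 (mm10), had 5.99 to 7.58 TPM in KO and 11.6 to 15.6 TPM in WT. Its difference was −0.97 ± 0.0728 (SE) on the log2(TPM + 1) scale over 9 libraries (limma, adjusted p = 8.3e-04), with every KO value below every WT value and transcript remaining in KO. Macrophage markers were high in the WT replicates 1, 5, 6 and 7 and in the KO libraries, with 8 markers summing to between 10273 and 12930 TPM. WT replicates 2, 3 and 4 stood apart. Their macrophage sum was 2426 to 5129 TPM. Of the 8 macrophage markers, 5 lay below the other WT libraries in all 3. Adgre1 and Mertk lay below them in WT replicates 2 and 4 and within their range in WT replicate 3. Cd68 lay above them in WT replicates 2 and 3 and below them in WT replicate 4. Their 8 fibroblast and smooth muscle markers summed to between 4171 and 10649 TPM against 121 to 654 TPM in the other 9 libraries, and their 10 neutrophil markers summed to between 79.3 and 109 TPM. Mpo and Elane, which define neutrophil precursors, were at or below 0.14 TPM in these 3 libraries, and Retnlg was listed at 0 in WT replicates 2 and 3. KO replicates 1 and 4 had the highest neutrophil sums, 6263 and 4378 TPM, against 1005 to 2107 TPM in the other KO libraries and 1195 to 1547 TPM in WT replicates 1, 5, 6 and 7. WT replicate 6 had the lowest stromal sum, 121 TPM, and KO replicates 1 and 4 had the next lowest, 204 and 294 TPM. In such bulk cultures, fewer cells of a type and less RNA per cell cannot be told apart. Each comparison is therefore given over all 12 libraries and over the 9 libraries without WT replicates 2, 3 and 4.

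**Figure D1:**
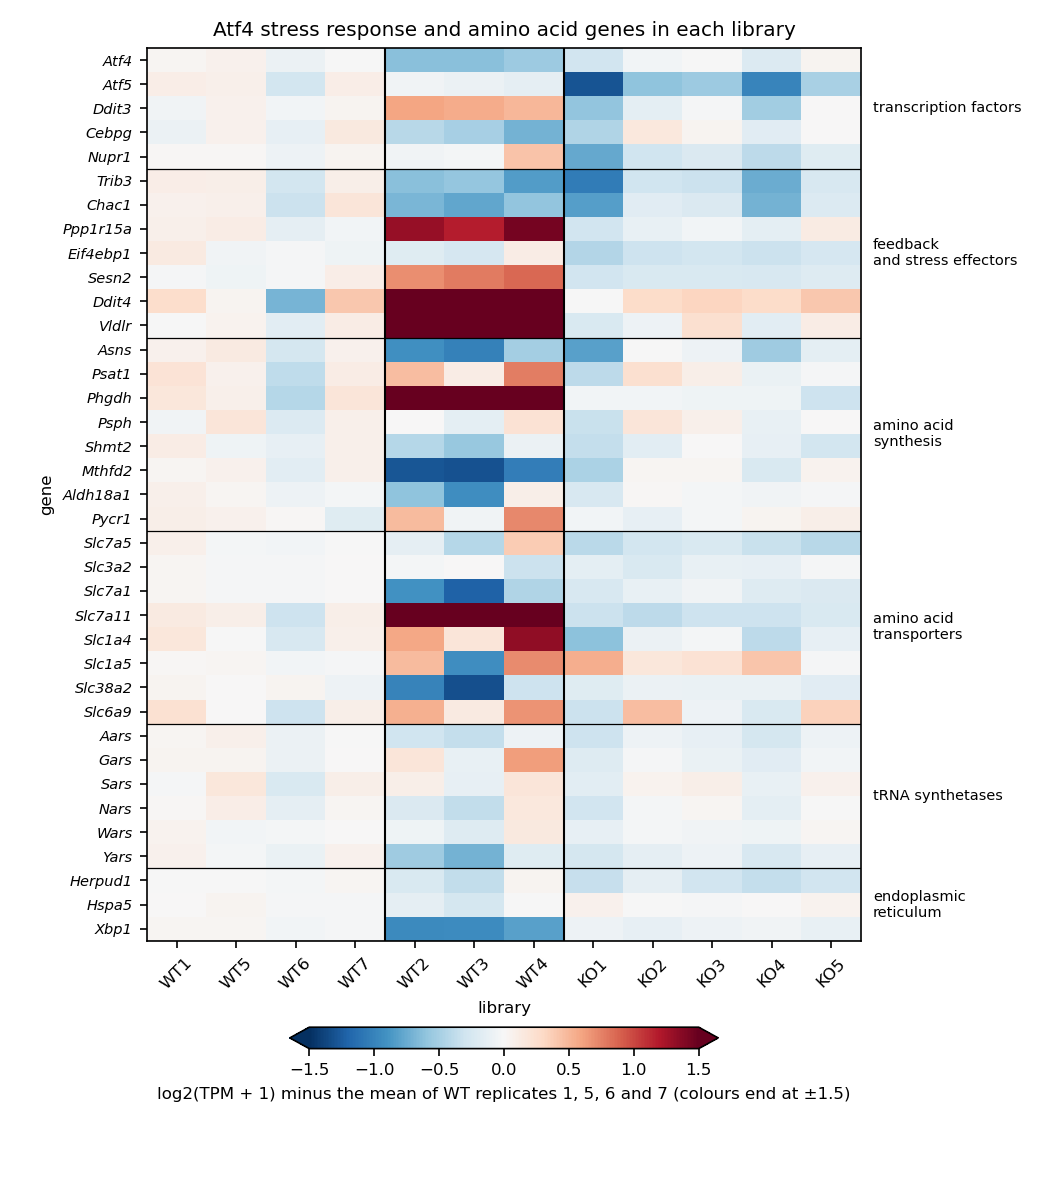
Each row is one of the 37 genes, grouped by role, and each column is a library; colour gives log2(TPM + 1) minus the mean of WT replicates 1, 5, 6 and 7, with colours ending at ±1.5. WT replicates 2, 3 and 4 hold the strongest colours in both directions, and KO replicates 1 and 4 are bluer than the other KO libraries in most rows of the upper groups.

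The first comparison asks how transcripts of these genes differed between KO and WT. Over the 9 libraries, 5 of the 36 genes tested fell in KO and 0 rose. Those that fell were the transcription factor Atf5, the translation repressor Eif4ebp1, the amino acid sensor Sesn2, the neutral amino acid transporter Slc7a5 and the membrane protein Herpud1, which acts in the removal of misfolded protein from the endoplasmic reticulum. The KO means of these 5 genes were 58.4% to 84.0% of the mean of the 4 WT libraries. Vldlr was the 1 gene that did not reach 1 TPM in at least 5 libraries. Among all 11152 genes tested, 0.717% fell and 1.61% rose by the same test (limma with Benjamini-Hochberg adjustment, adjusted p under 0.05).

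Of the 36 genes, 32 had a difference below 0, with a median of −0.12 on the log2(TPM + 1) scale, while 32.5% of all genes tested were below 0, with a median of 0.05. At an unadjusted p under 0.05, 17 of the 36 genes passed, against 18.9% of all genes tested. In 9 of the 36 genes every KO value lay below all 4 WT values, and in 0 every KO value lay above them; over all genes these shares were 2.08% and 7.09%. The 9 were Atf5, Nupr1, Eif4ebp1, Sesn2, Slc7a5, Slc7a1, Slc38a2, Herpud1 and Xbp1. Median-ratio scaling, which sets the typical gene equal between libraries, turned the calls over all genes from 180 higher and 80 lower to 74 higher and 152 lower, and the calls among these 36 genes from 5 to 8, all lower in KO. The count of 5 also depended on single libraries: it was 0 without WT replicate 1 and 1 without WT replicate 7 or KO replicate 4. It was 2 without WT replicate 5, KO replicate 2 or KO replicate 3, and 5 or 6 without each of the others. The share of all genes called lower shrank in each fit with 0 to 2 calls, so the drop was not particular to these genes. Dropping WT replicate 1 took this share from 0.717% to 0.17%. It became 0.287% on dropping WT replicate 7 and 0.341% on dropping KO replicate 4. In the fits with 5 or 6 calls it was 0.61% to 0.986%.

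Over all 12 libraries, 0 of the 36 genes passed the test in limma, and 0.126% of all genes tested were called in either direction. At an unadjusted p under 0.05, 9 of the 36 passed, against 17.5% of all genes. With quality weights, limma weighted each library by the spread of its values around the same fit, and no separate measure of quality entered. In that fit 8 of the 36 were called, all lower in KO, and 1.28% of all genes were called lower. Without these weights, the median difference of the 36 genes was −0.10 against 0.04 for all genes, and 25 of the 36 were below 0. In 3 genes, Atf5, Nupr1 and Sesn2, every KO value lay below all 7 WT values, and in 0 above them; over all genes these shares were 0.637% and 2.92%.

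**Figure D2:**
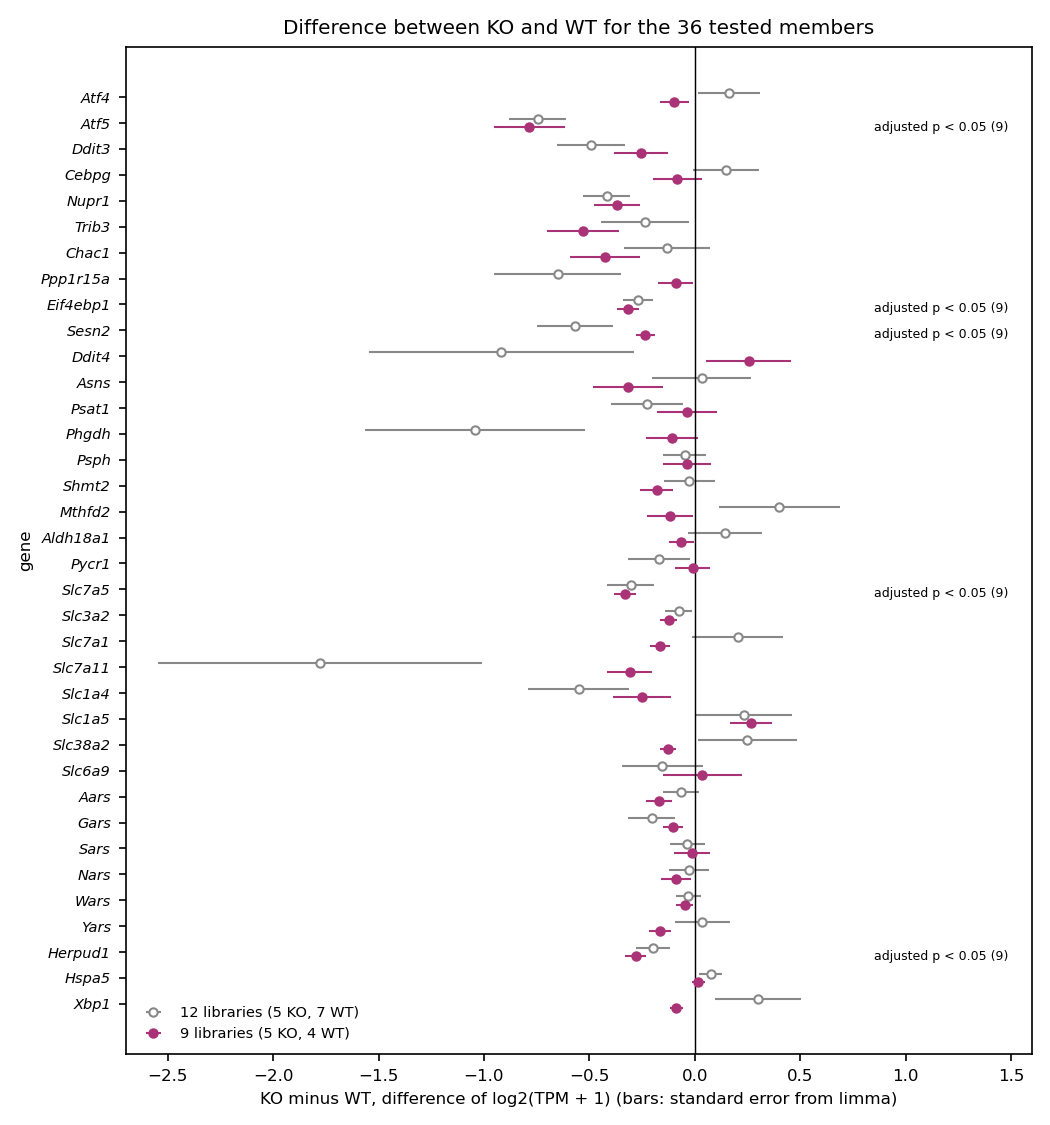
Each row is one of the 36 tested genes, and the horizontal axis is the KO minus WT difference of log2(TPM + 1) with its standard error from limma; open grey points use all 12 libraries and filled points the 9 libraries. The filled points lie left of 0 for 32 genes, and the 5 called genes are marked; Slc7a11, Phgdh and Ddit4 have the widest grey bars.

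Among the transcription factors, Atf5 fell in KO and the other 4 did not pass the test. Atf4 itself (ENSMUSG00000042406, chromosome 15 at 80255184 to 80257541) measured 294, 301, 271 and 287 TPM in WT replicates 1, 5, 6 and 7, 186, 186 and 196 TPM in WT replicates 2, 3 and 4, and 236, 281, 287, 251 and 297 TPM in KO replicates 1 to 5. The KO values overlapped those of the 4 WT libraries, and KO replicates 1 and 4 were the lowest of their group. The difference was −0.10 ± 0.070 over 9 libraries (limma, adjusted p = 0.502) and 0.16 ± 0.147 over 12 (adjusted p = 0.484). Without KO replicates 1 and 4 it was 0.0022 over the remaining 7 libraries.

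Atf5 (ENSMUSG00000038539, chromosome 7 at 44812256 to 44816658) encodes a relative of Atf4 whose translation is also favoured when eIF2 is phosphorylated. It measured 74.0, 72.7, 56.6 and 74.1 TPM in WT replicates 1, 5, 6 and 7, 66.2, 65.0 and 62.9 TPM in WT replicates 2, 3 and 4, and 27.45, 44.95, 46.92, 34.08 and 49.05 TPM in the KO libraries. Every KO value lay below every WT value, also those of WT replicates 2, 3 and 4. The means were 69.3 ± 8.55 TPM (SD, n = 4) in WT and 40.5 ± 9.30 TPM (SD, n = 5) in KO, a difference of −0.79 ± 0.169 on the log2(TPM + 1) scale (limma, adjusted p = 0.0458). It was −0.75 ± 0.136 over the 12 libraries (adjusted p = 0.0865). Without KO replicates 1 and 4, which had the highest neutrophil marker sums, it was −0.54 (adjusted p = 0.0363). The difference kept its sign under all 16 other settings that started from the 9 libraries, and it passed the test in 7 of them. Among the 16, the replicate block used only WT and KO replicates 1 and 5. Leaving out 1 library at a time, the adjusted p in limma lay between 0.0298 and 0.137.

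Ddit3, which encodes the stress factor CHOP, measured 76.2 to 82.6 TPM in the 4 WT libraries and 51.9, 71.4, 77.8, 54.9 and 79.3 TPM in KO. KO replicates 1 and 4 were low and the other 3 lay at or near the WT range, and the difference did not pass the test (−0.26 ± 0.127, limma, adjusted p = 0.311). Nupr1, a small stress-inducible nuclear protein, measured 30.8 to 33.5 TPM in the 4 WT libraries and 18.7, 26.2, 27.8, 24.6 and 28.6 TPM in KO. Its groups did not overlap, but the difference of −0.37 ± 0.108 missed the threshold (limma, adjusted p = 0.103). Cebpg, a C/EBP factor that pairs with Atf4, measured 29.1 to 35.1 TPM in the 4 WT libraries and 22.9 to 35.6 TPM in KO.

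**Figure D3:**
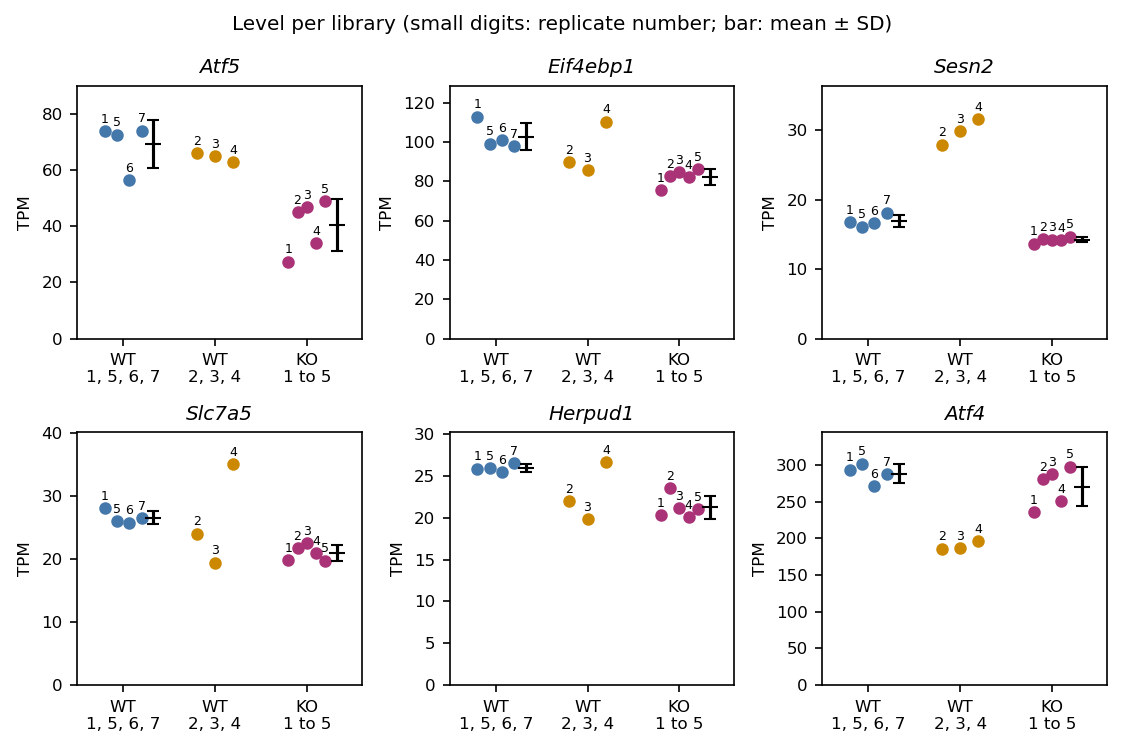
TPM per library on an axis that starts at 0, in 6 panels for Atf5, Eif4ebp1, Sesn2, Slc7a5, Herpud1 and Atf4, with WT replicates 1, 5, 6 and 7, WT replicates 2, 3 and 4 and the KO libraries side by side; small digits are replicate numbers, and bars give the mean ± SD of the first and last groups. The KO points lie below the 4 WT points in every panel but that of Atf4, and WT replicates 2, 3 and 4 lie highest for Sesn2 and lowest for Atf4.

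Of the 6 tested feedback and stress effectors, Eif4ebp1 and Sesn2 fell in KO. Eif4ebp1 (ENSMUSG00000031490, chromosome 8 at 27260329 to 27276674) encodes 4E-BP1, which holds the cap-binding factor eIF4E when mTOR signalling is low. It measured 113, 99.2, 101 and 97.8 TPM in WT replicates 1, 5, 6 and 7, 90.0, 85.7 and 110.5 TPM in WT replicates 2, 3 and 4, and 75.4, 82.8, 84.8, 82.1 and 86.2 TPM in KO. All KO values lay below the 4 WT values, while WT replicate 3 lay within the KO range. The difference was −0.32 ± 0.0533 (limma, adjusted p = 0.0204), and −0.27 ± 0.0713 over 12 libraries (adjusted p = 0.178). It passed in 12 of the 16 other settings; the adjusted p was 0.0542 without WT replicate 1, 0.05002 without KO replicate 2 and 0.0593 without KO replicate 4.

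Sesn2 (ENSMUSG00000028893, chromosome 4 at 132492032 to 132510501) encodes a leucine-binding protein that restrains mTOR signalling. It measured 16.7, 16.1, 16.7 and 18.1 TPM in WT replicates 1, 5, 6 and 7, and 13.7, 14.3, 14.2, 14.2 and 14.7 TPM in KO. WT replicates 2, 3 and 4 were higher than all other libraries, at 27.9, 29.9 and 31.6 TPM. The difference over 9 libraries was −0.24 ± 0.0452 (limma, adjusted p = 0.0309). Over 12 libraries it was −0.57 ± 0.180 (adjusted p = 0.217). The call was kept in 7 of 16 other settings; without KO replicates 1 and 4 the adjusted p was 0.0967.

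The other effectors did not pass the test. Trib3, a pseudokinase that binds Atf4 and dampens its activity, measured 21.23, 20.91, 16.12 and 20.96 TPM in the 4 WT libraries and 8.97, 15.9, 15.6, 11.3 and 16.6 TPM in KO, a difference of −0.53 ± 0.172 (limma, adjusted p = 0.135). WT replicate 6 overlapped the highest KO library. Chac1, which degrades glutathione, showed the same order, with 4.38 TPM in WT replicate 6 and 5.99 to 6.57 TPM in the other 3, and 2.77 and 3.11 TPM in KO replicates 1 and 4, below the 4.77 to 4.97 TPM of KO replicates 2, 3 and 5. Its difference was −0.43 ± 0.166 (limma, adjusted p = 0.209). Ppp1r15a, which encodes GADD34, the phosphatase subunit that reverses eIF2 phosphorylation, measured 15.7 to 18.8 TPM in the 4 WT libraries and 14.1 to 19.1 TPM in KO. Ddit4, an inhibitor of mTOR signalling, was the only tested effector with a KO mean above that of the 4 WT libraries (7.57 ± 0.877 against 6.43 ± 2.20 TPM, SD, n = 5 and 4), and its difference of 0.26 ± 0.201 did not pass the test (limma, adjusted p = 0.537). Vldlr, a lipoprotein receptor, lay at or below 0.76 TPM in the 9 libraries.

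None of the 8 enzymes of amino acid synthesis passed the test, although all 8 differences over 9 libraries were below 0, with a median of −0.09. Asns, asparagine synthetase, measured 58.1, 60.6, 46.1 and 57.8 TPM in the 4 WT libraries and 31.02, 55.04, 52.35, 37.97 and 49.99 TPM in KO. Its range in KO reached down to about the level in WT replicates 2 and 3, 28.7 and 27.0 TPM, and covered WT replicate 6. The difference was −0.32 ± 0.165 (limma, adjusted p = 0.338). Mthfd2, an enzyme of the mitochondrial one-carbon pathway, was the most abundant of the 8. It measured 99.2, 102, 87.0 and 103 TPM in the 4 WT libraries and 70.2, 99.2, 99.95, 82.9 and 101 TPM in KO, so that 3 of the 5 KO libraries lay within the WT range (−0.12 ± 0.110, limma, adjusted p = 0.616). Shmt2, its partner that splits serine, measured 68.9 to 81.1 TPM in the 4 WT libraries and 58.6 to 75.8 TPM in KO. The serine pathway enzymes Phgdh, Psat1 and Psph and the proline pathway enzymes Aldh18a1 and Pycr1 had KO means of 91.2% to 98.9% of the WT mean.

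Of the 8 amino acid transporters, Slc7a5 fell in KO. Slc7a5 (ENSMUSG00000040010, chromosome 8 at 121881150 to 121907694) encodes the light chain of the large neutral amino acid exchanger, which imports leucine and forms a dimer with the heavy chain encoded by Slc3a2. It measured 28.1, 26.0, 25.7 and 26.5 TPM in WT replicates 1, 5, 6 and 7, and 19.8, 21.8, 22.5, 20.9 and 19.7 TPM in KO. The groups were separate, while WT replicates 2, 3 and 4 spread over both, at 24.0, 19.4 and 35.0 TPM. The difference was −0.33 ± 0.0505 (limma, adjusted p = 0.0148), the lowest adjusted p of the 36 genes over the 9 libraries, and −0.30 ± 0.111 over 12 libraries (adjusted p = 0.236). It passed in 13 of 16 other settings; without WT replicate 1 and without WT replicate 7 the adjusted p was 0.0572 and 0.0527. Slc7a5 did not follow the order of KO replicates 1 and 4: KO replicate 5 was the lowest.

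Slc3a2, the heavy chain, measured 471, 458, 456 and 464 TPM in the 4 WT libraries and 417, 396, 426, 426 and 458 TPM in KO, and KO replicate 5 reached the WT range (−0.12 ± 0.0411, limma, adjusted p = 0.141). Slc7a1, a carrier of arginine and other cationic amino acids, measured 19.02 to 19.75 TPM in the 4 WT libraries and 16.1 to 18.5 TPM in KO. Slc38a2, a sodium-coupled carrier of small neutral amino acids, measured 50.7 to 55.2 TPM and 47.0 to 50.5 TPM. Neither gene's groups overlapped, but the adjusted p was 0.102 for Slc7a1 and 0.116 for Slc38a2 in limma. Slc7a11, the cystine and glutamate exchanger, was low in all 9 libraries, with 1.96, 1.86, 1.17 and 1.87 TPM in WT and 1.06 to 1.30 TPM in KO, and WT replicate 6 lay within the KO range. Slc1a5, a glutamine carrier, went the other way, with 14.1 to 14.9 TPM in WT and 21.66, 16.55, 17.04, 19.71 and 14.41 TPM in KO (0.27 ± 0.1003, limma, adjusted p = 0.192), and KO replicates 1 and 4 were its highest KO libraries. Slc1a4, a carrier of alanine, serine and cysteine, and Slc6a9, a glycine carrier, overlapped between the groups, at 2.26 to 3.32 against 1.51 to 2.76 TPM and at 1.0 to 1.91 against 0.99 to 2.44 TPM.

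The 6 tRNA synthetases, which load tRNAs with alanine (Aars), glycine (Gars), serine (Sars), asparagine (Nars), tryptophan (Wars) and tyrosine (Yars), had KO means of 88.9% to 98.8% of the WT mean, and none passed the test. Nars, the most abundant, measured 274, 289.5, 246 and 277 TPM in the 4 WT libraries and 221, 265, 277, 245 and 270.4 TPM in KO (−0.09, limma, adjusted p = 0.554). In all 6 genes KO replicate 1 was the lowest KO library and replicate 4 the next.

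Of the 3 endoplasmic reticulum genes, Herpud1 fell in KO. Herpud1 (ENSMUSG00000031770, chromosome 8 at 94386438 to 94395377) measured 25.9, 25.9, 25.5 and 26.6 TPM in WT replicates 1, 5, 6 and 7, 22.0, 19.9 and 26.6 TPM in WT replicates 2, 3 and 4, and 20.3, 23.6, 21.2, 20.1 and 21.1 TPM in KO. All KO values lay below the narrow range of the 4 WT libraries, while WT replicate 2 lay among the KO values and WT replicate 3 below them. The difference was −0.28 ± 0.0494 (limma, adjusted p = 0.0240), and −0.20 ± 0.0799 over 12 libraries (adjusted p = 0.255). It passed in 9 of 16 other settings, and the adjusted p was 0.0686 without KO replicates 1 and 4. Hspa5, the chaperone BiP, was the most abundant of the 37 genes, with 620.2, 635, 610.3 and 612 TPM in the 4 WT libraries and 646, 616, 609, 623 and 639.9 TPM in KO. Its groups overlapped and the difference was 0.02 ± 0.0299 (limma, adjusted p = 0.802), or −0.04 with median-ratio scaling. Xbp1, a factor of the unfolded protein response, measured 125, 125, 119 and 121 TPM in WT and 116, 112, 116, 118 and 113 TPM in KO, a separation that did not pass the test (−0.09 ± 0.0302, limma, adjusted p = 0.162).

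The KO libraries differed among themselves in a repeated order. KO replicate 1 was the lowest KO library in 27 of the 36 genes, against 28.1% of all genes tested, and KO replicates 1 and 4 were the lowest pair in 25 of the 36, against 18.9% of all genes. By role, this pair was lowest in 5 of 5 transcription factors, 6 of 6 effectors, 5 of 8 synthesis enzymes, 2 of 8 transporters, 6 of 6 tRNA synthetases and 1 of 3 endoplasmic reticulum genes. The same libraries had the highest sums of the 10 neutrophil markers, with no marker at 0. They also had the lowest stromal sums of the KO group, 204 and 294 TPM, against 458 to 654 TPM in KO replicates 2, 3 and 5. Among WT replicates 1, 5, 6 and 7, replicate 6 was the lowest in 29 of the 36 genes, against 33.6% of all genes, and it had the lowest sum of the 8 stromal markers, while its neutrophil sum of 1195 TPM was close to those of the other 3. The part of these cell markers in the order of the libraries was not tested. Without KO replicates 1 and 4, the test called 3 of the 36 genes, Atf5 (−0.54), Eif4ebp1 (−0.28, adjusted p = 0.0494) and Slc7a5 (−0.31, adjusted p = 0.0461, limma), and 26 of the 36 differences were below 0. Over all genes, the same libraries gave 0.744% called lower and 35.8% of differences below 0.

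**Figure D4:**
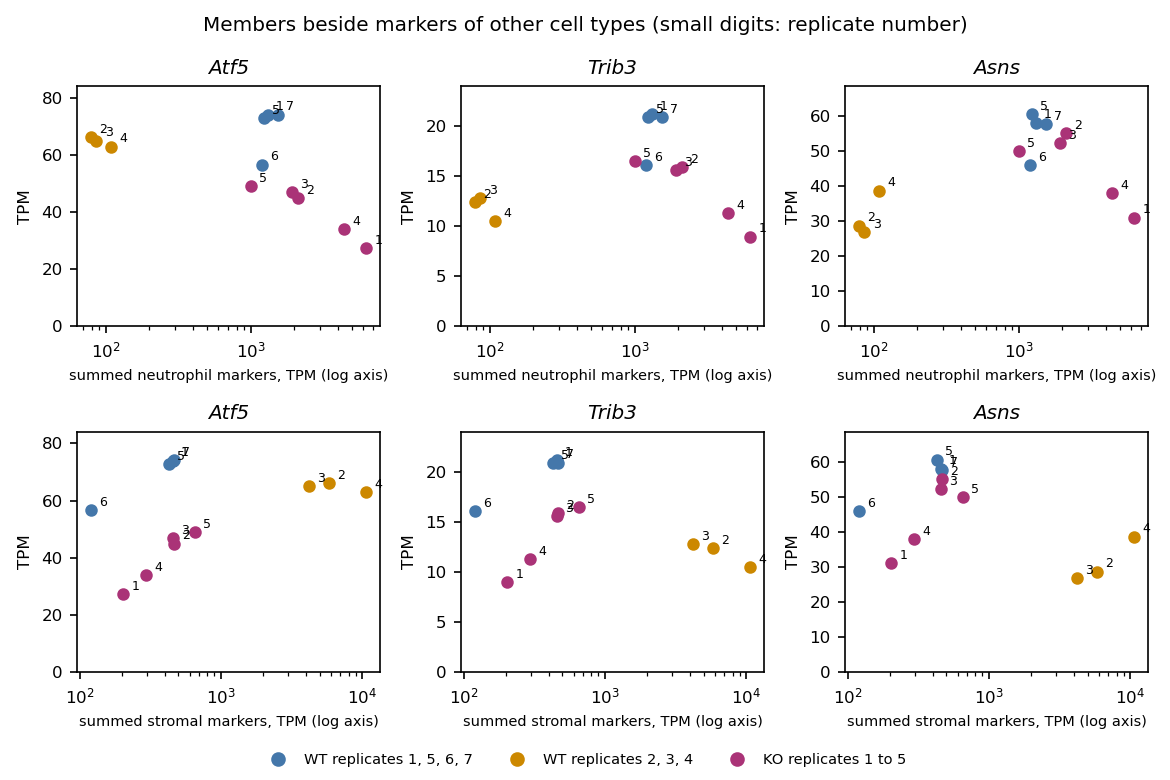
TPM of Atf5, Trib3 and Asns on the vertical axis against the summed TPM of 10 neutrophil markers (upper panels) or of 8 fibroblast and smooth muscle markers (lower panels) on a log axis; each point is a library with its replicate number. KO replicates 1 and 4 lie furthest to the right in the upper panels and low on the vertical axis among the KO points. WT replicate 6 lies furthest left in the lower panels, followed by KO replicates 1 and 4.

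The second comparison sets WT replicates 2, 3 and 4 beside the other 4 WT libraries. These 3 libraries were set apart by earlier results on the same data, so their values are a description with no test. Of the 36 tested genes, 7 lay above all 4 other WT libraries in each of the 3, 10 lay below and 19 overlapped. Over all genes tested, 29.9% lay above and 28.3% below, so separation of the 3 libraries was common and the counts lie near or below this background. Omitting WT replicate 3 gave 12 above, against 35.4% of all genes, and omitting WT replicate 4 gave 19 below, against 36.2% of all genes.

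The genes that lay above were of several roles. Slc7a11 measured 32.3, 24.1 and 28.2 TPM in WT replicates 2, 3 and 4, and the medians differed 15.1 times from the 1.17 to 1.96 TPM of the other WT libraries. Phgdh, the first enzyme of serine synthesis, measured 66.6, 46.7 and 117 TPM against 10.9 to 17.1 TPM, a ratio of medians of 4.07. Ddit4 measured 42.5, 45.4 and 52.6 TPM against 3.39 to 8.43 TPM, a ratio of 6.52. These 3 genes lay low in all 9 other libraries, the KO libraries included. Ppp1r15a measured 44.4, 40.5 and 49.0 TPM against 15.7 to 18.8 TPM, Ddit3 120.1, 117 and 112 TPM against 76.2 to 82.6 TPM, and Slc1a4 4.77, 3.38 and 8.72 TPM against 2.26 to 3.32 TPM. Sesn2, given above, completes the 7. Vldlr, which was not tested, measured 4.47, 3.98 and 5.33 TPM against 0.33 to 0.61 TPM.

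The genes that lay below were of several roles too and included Atf4, with a ratio of medians of 0.642. Mthfd2 measured 39.5, 38.8 and 46.9 TPM against 87.0 to 103 TPM, a ratio of 0.393, and Asns 28.7, 27.0 and 38.7 TPM against 46.1 to 60.6 TPM, a ratio of 0.496. Trib3 measured 12.4, 12.8 and 10.6 TPM against 16.1 to 21.2 TPM, and Chac1 3.18, 2.90 and 3.45 TPM against 4.38 to 6.57 TPM. Cebpg measured 23.55, 22.23 and 19.01 TPM against 29.1 to 35.1 TPM. Among the transporters, Slc7a1 (9.84, 7.72 and 13.8 TPM against 19.02 to 19.75) and Slc38a2 (26.4, 20.9 and 42.9 TPM against 50.7 to 55.2) lay below. Xbp1 measured 62.9, 63.2 and 68.9 TPM against 119 to 125 TPM, and Yars 41.6, 36.8 and 53.4 TPM against 56.2 to 63.5 TPM. Feedback genes thus lay on both sides, with Ppp1r15a, Sesn2 and Ddit4 above and Trib3 and Chac1 below.

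Most tRNA synthetases overlapped, with 5 of 6 genes doing so. Gars measured 102, 82.8 and 139 TPM against 84.0 to 92.2 TPM, and Wars 35.2, 32.2 and 41.2 TPM against 36.04 to 38.52 TPM. WT replicate 3 was the lowest and WT replicate 4 the highest of the 3 in both genes. Their stromal marker sums had the same order, with 4171 TPM in WT replicate 3, 5826 TPM in WT replicate 2 and 10649 TPM in WT replicate 4. The macrophage marker sums had the opposite order, with 5129, 3499 and 2426 TPM in WT replicates 3, 2 and 4. Slc1a5 measured 20.7, 7.12 and 24.4 TPM in WT replicates 2, 3 and 4. The part of the stromal cells or of the macrophages in these levels was not tested. A sum over cell types cannot be told apart from a change within macrophages in these libraries.

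**Figure D5:**
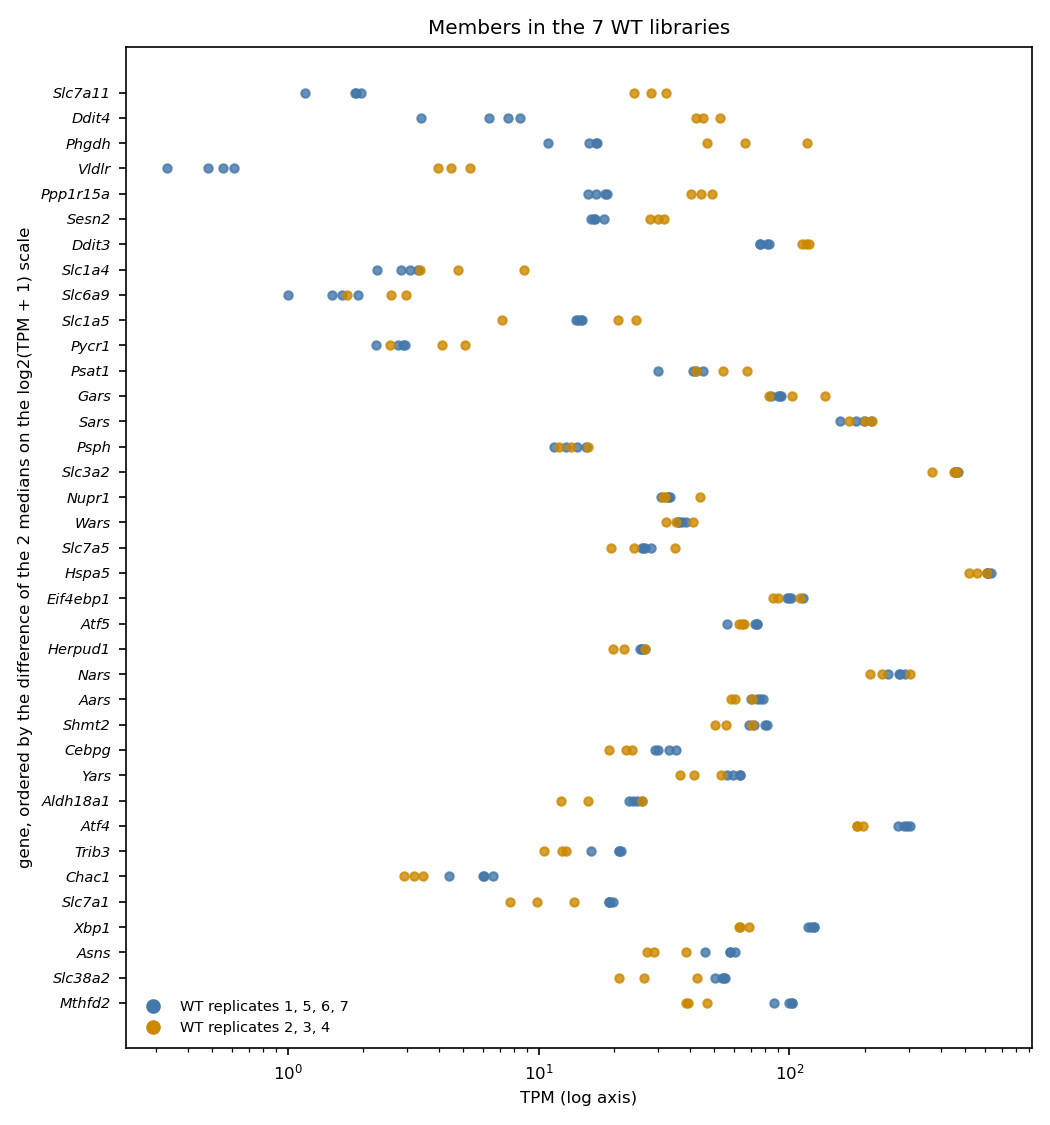
TPM on a log axis for each of the 37 genes in the 7 WT libraries, with WT replicates 1, 5, 6 and 7 and WT replicates 2, 3 and 4 in different colours; genes are ordered by the difference of the medians on the log2(TPM + 1) scale. Slc7a11, Ddit4 and Phgdh lie at the end where WT replicates 2, 3 and 4 are higher, and Mthfd2, Slc38a2 and Asns lie at the end where they are lower.

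Where WT replicates 2, 3 and 4 lay far from the other WT libraries, the 12-library and 9-library differences could part, as 2 genes show. For Slc7a11 the 12-library difference was −1.78 ± 0.769 (limma, adjusted p = 0.270) and the 9-library difference −0.31 ± 0.107 (adjusted p = 0.160). For Mthfd2 they were 0.40 ± 0.286 (adjusted p = 0.390) and −0.12 ± 0.110 (adjusted p = 0.616), with opposite signs. Atf4, Cebpg, Ddit4, Asns, Aldh18a1, Slc7a1, Slc38a2, Slc6a9, Yars and Xbp1 also had opposite signs in both sets. None of these genes, nor Mthfd2, passed the test in either set.

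Other genes of the pathway were read from 5 lists of 76 genes, of which 69 were tested. Over 9 libraries 1 fell and 1 rose, close to the 0.717% and 1.61% of all genes, and over 12 libraries 0 passed in limma. The list of kinases, stress sensors and genes of eIF2 and its regulators had 0 of 15 genes called, 8 of them below 0 and a median of −0.00. The other enzymes of amino acids and one-carbon units had 0 of 12 called and a median of −0.02. The other cytosolic tRNA synthetases had 0 of 14 called and a median of −0.05, and other genes of the endoplasmic reticulum had 0 of 18 called and a median of 0.04. Both calls were in the list of other Atf4 related genes, of which 10 were tested. Atf3, a stress-induced factor related to Atf4, rose in KO: it measured 147 to 156 TPM in WT replicates 1, 5, 6 and 7, 205, 208 and 158 TPM in WT replicates 2, 3 and 4, and 169, 238, 235, 198 and 235 TPM in KO (0.49 ± 0.0968, limma, adjusted p = 0.0361). Its direction was opposite to that of Atf5, and KO replicate 1 was again the lowest KO library. Sqstm1, which encodes the autophagy receptor p62, fell: it measured 606 to 660 TPM in the 4 WT libraries, 1002, 1045 and 970 TPM in WT replicates 2, 3 and 4, and 521 to 607 TPM in KO (−0.22 ± 0.0481, limma, adjusted p = 0.0458). Both calls were kept in 5 of 16 other settings.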

How the data were processed

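Libraries of total RNA were prepared with a NEBNext Ultra kit for paired-end sequencing, per the labels' protocols. As tools and genome build, bcl2fastq, Salmon 1.2.0 and mm10 appear in the submitters' processing notes. The annotation release, gene-level summing and strand were not given in the sources used here. By gene, the authors deposited TPM values for 23438 Ensembl IDs, which summed to between 940127 and 947987 per library. The depth behind a TPM value is unknown, and reads shared with near-identical or antisense genes cannot be separated. GENCODE M21 gave symbols for 23423 IDs.

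From there, log2(TPM + 1) was computed and 11152 genes that reached 1 TPM in 5 or more libraries were tested with limma 3.58.1 (R 4.3.3, trend), with Benjamini-Hochberg adjustment over all of them and a threshold of 0.05. Fold changes on this scale understate those of low genes. The fit used 7 WT and 5 KO libraries, or 9 libraries without WT replicates 2, 3 and 4; the script was tested on simulated data. The alternatives were median-ratio scaling, no filter, a pseudocount of 0.1, quality weights and a term for submission order. This term split the libraries into submission numbers 1 to 5 and 6 to 12. The replicate number was also used as a block, over the numbers that WT and KO libraries share. Further fits left out each library and, chosen after seeing the data, KO replicates 1 and 4. All 37 members were named, with the knocked-out gene and the called genes of the pathway lists. The members, roles and lists were chosen with earlier results of these data known. Motifs were searched in RefSeq windows of 250 bases. The sequence of 1 further window is not reported here.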

Additional observations from a re-analysis of the deposited data

Results flagged for a closer look

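Among 74 sets of library values (each gene in the WT or in the KO libraries), 6 held a library far from its nearest neighbour by Dixon's test at the 95% level; chance gives about 1 in 20. WT replicate 4 was the extreme library in 4 of them. It had the highest WT value of Nupr1 (43.92 TPM, next 33.51), Slc1a4 (8.72 TPM, next 4.77) and Gars (139.13 TPM, next 102.1), and the lowest of Slc3a2 (371.02 TPM, next 451.9). This library also had the highest sum of fibroblast and smooth muscle markers, 10649 TPM, and the lowest macrophage sum, 2426 TPM. The part of those cells was not tested. In KO, Phgdh was lowest in replicate 5 (11.84 TPM, next 14.22) and Aldh18a1 in replicate 1 (20.5 TPM, next 23.48).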

How the results depend on the processing

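Over 9 libraries, 5 genes of the set were called lower in KO and 260 of all genes were called, 80 of them lower. With median-ratio scaling the set gave 8 calls and all genes 152 lower calls, without a filter all genes gave 167 (52 lower), with quality weights the set gave 9 and all genes 758 (179 lower), and with a term for submission order the set gave 3 and all genes 132 (49 lower). Leaving out 1 library gave 0 to 6 calls in the set, 51 to 462 over all genes and 19 to 110 lower. Over 12 libraries the set gave 0 calls and all genes 14 (2 lower). Median-ratio scaling gave 4 over all genes, quality weights 8 in the set and 759 over all genes (143 lower), the term for submission order 3 (1 lower), and omission of WT replicates 2, 3 and 4 gave 5 in the set and 260 over all genes (80 lower). Leaving out 1 library gave 0 to 1 in the set, 2 to 36 over all genes and 1 to 4 lower. The 1 call, Atf5, came without WT replicate 6 (adjusted p = 0.0488, limma).

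A check for pairing by replicate number could not decide whether the libraries were paired. The correlations of deviations between same-numbered libraries were 0.22, 0.20, 0.14, −0.22 and −0.18, and only replicate 1 correlated best with its own number. The WT libraries that stood apart were part of this check, and their distance from the rest could hide a shared signal. The replicate block could use only numbers that WT and KO libraries share. These were WT and KO replicates 1 to 5 of the 12 libraries, and WT and KO replicates 1 and 5 of the 9 libraries. With the block, limma called 0 genes in both fits (3706 and 897 at an unadjusted p under 0.05), hence 0 in the set. The same libraries without the block gave 13 and 0. With so few libraries in the second fit, a lost call cannot be told from the loss of libraries. The count of genes above the other WT libraries was 7 to 12, and of those below 10 to 19, when 1 library was left out; over all genes these shares were 31.0% to 35.4% and 28.9% to 36.2%.

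Over 12 libraries, these differences turned sign with quality weights and again without WT replicates 2, 3 and 4, with values in that order: Atf4 −0.084 and −0.096, Cebpg −0.059 and −0.082, Ddit4 0.024 and 0.26, Asns −0.30 and −0.32, Mthfd2 −0.0850 and −0.12, Aldh18a1 −0.044 and −0.064, Slc7a1 −0.13 and −0.16, Slc38a2 −0.074 and −0.13, Yars −0.17 and −0.17, Xbp1 −0.056 and −0.087. Over 9 libraries without KO replicates 1 and 4, the set gave 3 calls. Atf4 (0.0022), Cebpg (0.071), Psph (0.088) and Mthfd2 (0.037) turned sign there by more than 1 standard error. Psat1 and Sars also turned there, by no more than 1 standard error. Hspa5 turned sign with median-ratio scaling (−0.039). Under the other settings, turns within 1 standard error are not listed. Over 12 libraries Slc6a9 also turned, from −0.15 to 0.036 without WT replicates 2, 3 and 4, by no more than its standard error. The cause of these changes was not tested. Without read counts, how far depth limits low values such as those of Slc7a11, Slc6a9, Pycr1 and Vldlr is unknown.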
